A study of Mus musculus with 52 samples.

Results

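The genes described here are the cadherins and protocadherins, the cell surface proteins through which cells hold on to their neighbours. They were chosen by symbol: every gene named Cdh with a number, apart from Cdh1, Cdh5 and Cdh19, and every gene whose name starts with Pcdh. The mouse annotation holds 90 such genes and 83 of them were among the 20730 genes of the count table. The other 7 (Cdh7, Cdh9, Cdh20, Cdh26, Pcdha2, Pcdha4 and Pcdhb1) were not analysed here. The 83 genes comprised 16 cadherins, 12 non-clustered protocadherins and 55 clustered protocadherins, the last split into 12 Pcdha, 21 Pcdhb and 22 Pcdhg genes.

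Bulk RNA was sequenced from flash-frozen primary mouse osteosarcomas, malignant bone tumours, in 52 libraries. Tumours of the p53fl/fl group (16 libraries) carried floxed Trp53 alleles with no named mutant. Those of the p53R172H/fl group (19 libraries) and the p53R245W/fl group (17 libraries) carried 1 floxed allele and 1 allele with the named p53 substitution. All 3 groups therefore shared a floxed allele. The promoter that drives recombination, the age of the mice and the cells that were recombined are not given in the labels. The comparisons ask how the tumours of the 3 p53 genotypes differ from one another.

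Classical cadherins bind the same cadherin on the neighbouring cell in the presence of calcium, and their tails hold beta-catenin and p120-catenin, which link them to actin. N-cadherin (Cdh2) and OB-cadherin (Cdh11) are the cadherins known from osteoblasts and other mesenchymal cells. Clustered protocadherins are arranged as tandem arrays in which each variable exon has its own promoter and is spliced to exons shared by the whole Pcdha or Pcdhg array, whereas Pcdhb genes have a single exon each. In neurons, cells switch on different combinations of these promoters, which gives single cells an adhesive identity.

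Total counts per library ranged from 21596798 to 67223388. Trp53 lay between 8.58 and 19.9 CPM (read counts scaled to a common library size) in the p53fl/fl libraries, between 25.6 and 47.9 in p53R172H/fl and between 21.9 and 59.2 in p53R245W/fl. The libraries were put into 3 sets by the prefix of their column names. Set A pooled the prefixes FM, FNM, WFM and WFNM, set B was R1002 and set C was R553. Set A held no p53R245W/fl library. All 18 libraries of set B had a partner of the same genotype in another set that resembled them far more closely than any other library outside set B did, with a Spearman correlation of gene deviations (log2 CPM less the set and genotype effects) of 0.639 to 0.938 against at most 0.515 for the next best. The labels give such libraries different tumour numbers. Each pair was counted as 1 tumour unit, written 408/1835 for example, which left 34 units: 10 p53fl/fl, 13 p53R172H/fl and 11 p53R245W/fl. The osteoblast genes Runx2, Sp7, Col1a1, Col1a2, Alpl and Ibsp had counts in all 52 libraries, but 3 p53R245W/fl units (408/1835, 494/1831 and 1580) were the lowest 3 of 34 in summed osteoblast markers (3391, 3410 and 8679 CPM against a median of 77740). In bulk tumours, fewer cells of a type and less RNA per cell cannot be told apart.

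Per length of exon, Cdh11 was the most abundant member, at a median of 41.7 CPM per kilobase (RPKM) over the 34 units, followed by Pcdhgc3 at 35.8, Cdh2 at 30.6, Pcdh18 at 25.2, Cdh15 at 14.5 and Pcdh7 at 10.7. The lengths of Pcdha and Pcdhg genes counted only exons that no other gene shares, for Pcdhgc3 3380 of 5499 bases. If reads in shared exons were counted for these genes, their levels per length are too high. The rank of Pcdhgc3 is therefore uncertain. With 1 CPM as the level at which a gene was called on, 31 of the 83 members were on in all 34 units, 17 in 21 to 33 units, 13 in 6 to 20 units and 22 in 1 to 5 units. Within pairs of matched libraries, members differed by a median of 0.31 on the log2 scale, while their standard deviation across units had a median of 1.18. For all 83 members the difference within pairs was below the spread between units, so the variation lay mainly between tumour units.

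**Figure D1:**
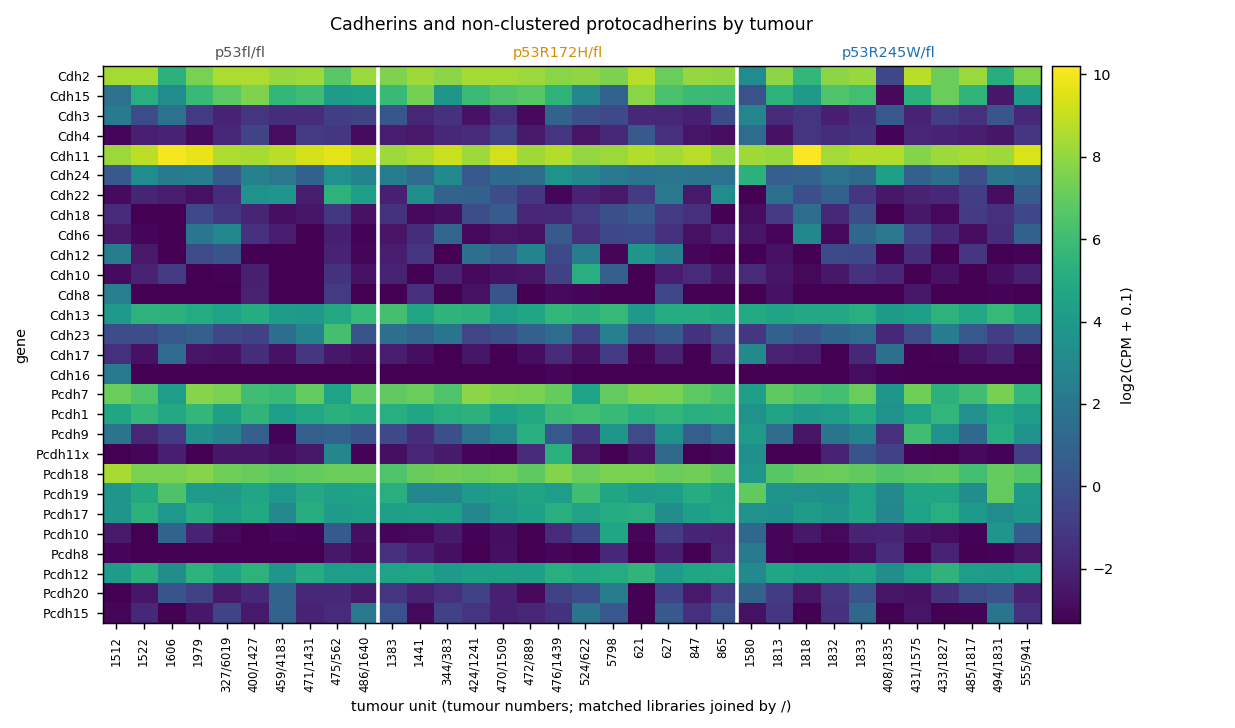
Level of the 28 cadherins and non-clustered protocadherins (rows, ordered by class and by level) in the 34 tumour units (columns, grouped by genotype), as log2 of CPM plus 0.1. Cdh2, Cdh15, Cdh11, Cdh13, Pcdh7, Pcdh1, Pcdh18, Pcdh19, Pcdh17 and Pcdh12 are bright in nearly all units, Cdh24 and Pcdh9 are at 1 CPM or more in 33 and 24 units, and bright cells in the other rows are fewer, such as Cdh10 in 524/622 and Cdh16 in 1512.

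Among the type I classical cadherins, Cdh2 (chromosome 18, 16588877 to 16809246 on GRCm38, the build of all coordinates here) had the highest level. Its lowest, median and highest libraries were 41.8, 291 and 412 CPM in p53fl/fl, 140, 257 and 414 in p53R172H/fl, and 0.375, 179 and 459 in p53R245W/fl. The groups overlapped, and the difference between p53R245W/fl and p53fl/fl was -0.60 on the log2 scale (SE 0.42, adjusted p = 0.341, edgeR quasi-likelihood test). The low tail of p53R245W/fl was made of the 3 units with low osteoblast markers: Cdh2 was 0.63 CPM in 408/1835, 9.41 in 1580 and 34.7 in 494/1831, all below the lowest of the other 31 units at 41.8.

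Cdh15, M-cadherin (chromosome 8, 122847966 to 122867397), is best known from satellite cells and myoblasts. It was on in 31 of 34 units. The lowest, median and highest libraries were 3.18, 48.6 and 206 CPM in p53fl/fl, 1.84, 56.8 and 225 in p53R172H/fl, and 0.0, 38.1 and 143 in p53R245W/fl. The 3 units in which it was off were again 408/1835 (0.027 CPM), 494/1831 (0.086) and 1580 (0.91), below the 1.84 CPM of the lowest other unit. Cdh2 and Cdh15 were the 2 of 83 members for which these 3 units lay outside the range of the other 31 units, and in both they lay below it. Cdh15 did not pass the test in any comparison; its log2 difference was -0.62 (SE 0.65, adjusted p = 0.548) for p53R245W/fl against p53fl/fl.

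The relation of Cdh15 with muscle genes was examined over units. Over 34 units Pearson's r with the mean log2 CPM of 20 skeletal muscle genes was 0.35 (Spearman's rho 0.13, permutation p = 0.0417 and 0.472, adjusted over 9 relations 0.0626 and 0.472), and r was 0.06 without the 2 units farthest from the median. With 7 satellite cell and myoblast genes r was 0.41 (rho 0.18, permutation p = 0.0152 and 0.315, adjusted 0.0341 and 0.472), and 0.38 without the 2 farthest units. Without the 3 units of low osteoblast markers the 2 values of r were 0.05 and 0.02 over 31 units. Within genotypes r with muscle genes was 0.145 in p53fl/fl, -0.275 in p53R172H/fl and 0.83 in p53R245W/fl, and with satellite cell and myoblast genes it was 0.265, -0.403 and 0.787. Both pooled values therefore rest on the 3 low units.

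P-cadherin (Cdh3) and R-cadherin (Cdh4) were low. Cdh3 had a median of 0.30 CPM and reached 6.997 in 1580 and 4.82 in p53fl/fl tumour 1512. Its r with 12 keratinocyte and epithelial genes was 0.47 (rho 0.33, permutation p = 0.00612 and 0.0587, adjusted 0.0184 and 0.132), and 0.34 without the 2 farthest units, 408/1835 and 1580. Summed keratinocyte and epithelial markers were 2495 CPM in 1580 and 298 in 408/1835, ranks 1 and 2 of 34, against a median of 12.9, so that the pooled r rests in part on these units.

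Among the type II cadherins, Cdh11 (chromosome 8, 102632095 to 102785642) was on in every unit and differed little within pairs of libraries (a median of 0.095 on the log2 scale). Its lowest, median and highest libraries were 283, 476 and 1020 CPM in p53fl/fl, 244.6, 323 and 641 in p53R172H/fl, and 188, 325 and 1127 in p53R245W/fl. The p53fl/fl libraries had the highest median, with wide overlap; the log2 difference was -0.54 for p53R172H/fl (SE 0.19, adjusted p = 0.097) and -0.45 for p53R245W/fl (SE 0.20, adjusted p = 0.103), neither past the threshold. Unlike Cdh2 and Cdh15, Cdh11 kept its level in the units of low osteoblast markers, with 402 CPM in 408/1835, 310.5 in 1580 and 295 in 494/1831 against a median of 377 in the others. Its r with 12 osteoblast genes was 0.15 (rho 0.14, permutation p = 0.403 and 0.432, adjusted 0.453 and 0.472), and -0.015 over the 31 units without the 3 low ones.

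Cdh2 did show a relation with the osteoblast genes over all units, with r = 0.68 (rho 0.40, permutation p = 0.00229 and 0.0182, adjusted 0.0103 and 0.0547) and 0.71 without the 2 farthest units, 494/1831 and 1580. Over the 31 units without the 3 low ones r was 0.285, and within p53fl/fl, p53R172H/fl and p53R245W/fl it was 0.48, 0.19 and 0.66. The pooled value therefore rests on units that stand apart from the others.

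**Figure D2:**
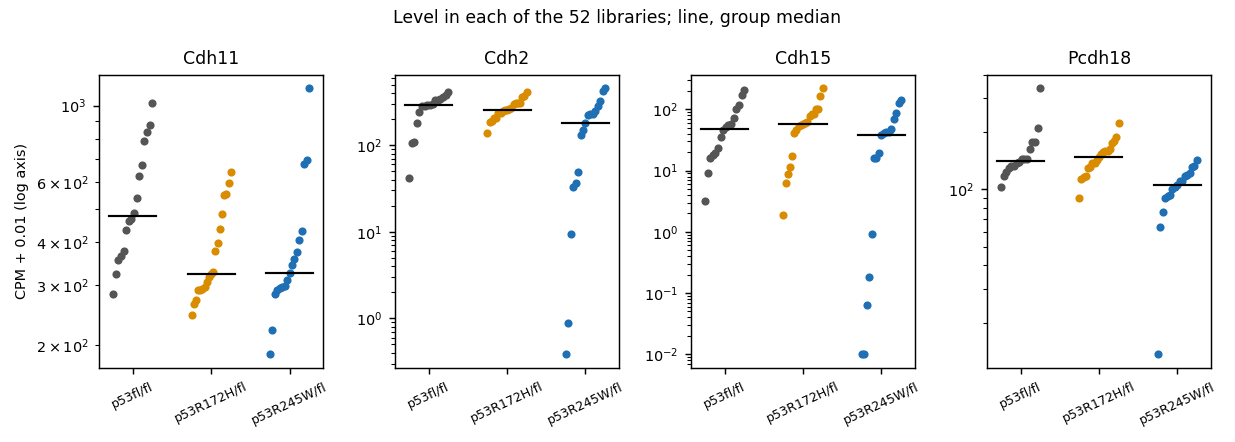
Level of Cdh11, Cdh2, Cdh15 and Pcdh18 in each of the 52 libraries (CPM plus 0.01, log axis), by genotype; points are libraries and lines group medians. For Cdh2 and Cdh15 the p53R245W/fl libraries reach down to 0.375 and 0.0 CPM, while Cdh11 stays between 188 and 1127 CPM in all libraries.

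Cdh22 (chromosome 2, 165111507 to 165234853), a type II cadherin known from the pituitary and brain, divided the p53fl/fl tumours. It was 42.6 CPM in 475/562, 18.7 in 486/1640, 12.9 in 459/4183 and 12.04 in 400/1427, and at most 0.24 in the other 6 p53fl/fl units. In p53R172H/fl it reached 10.5 CPM in 1441 and 9.34 in 865, and in p53R245W/fl at most 3.02, in 1813. The groups overlapped and the median unit was similar (0.20, 0.38 and 0.35 CPM), but the 4 high p53fl/fl units were all pairs of libraries. The edgeR test called Cdh22 lower in p53R245W/fl than in p53fl/fl, with a log2 difference of -4.11 (SE 0.94, adjusted p = 0.00211). All 17 p53R245W/fl libraries lay below the p53fl/fl library median of 6.19 CPM, but 5 of 11 units lay below the p53fl/fl unit median. The call held when any 1 unit was left out, with -3.31 (adjusted p = 0.0117) without 475/562. In the matched-pair fit (limma voom with pairs and library set) it was -1.60 (SE 1.27, adjusted p = 0.672).

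Cdh12 (chromosome 15, 20449265 to 21589533) was called lower in p53R245W/fl than in p53R172H/fl, with a log2 difference of -4.18 (SE 1.04, adjusted p = 0.00211; matched-pair fit -3.51, SE 1.37, adjusted p = 0.156). Its lowest, median and highest libraries were 0.0, 1.06 and 13.2 CPM in p53R172H/fl and 0.0, 0.018 and 0.729 in p53R245W/fl. It was on in 6 of 13 p53R172H/fl units, led by 621 at 13.2 CPM and 472/889 at 6.70, in 2 of 10 p53fl/fl units and in none of the 11 p53R245W/fl units. The ranges overlapped at the low end, since 2 p53R172H/fl units had no count. Cdh24 was on in 33 of 34 units at a median of 3.55 CPM; its highest units were 1580 at 41.3 and 408/1835 at 19.8. Cdh6, K-cadherin, was off in 26 units and highest in 327/6019 (7.95 CPM) and in 1818 (7.86), tumours of different genotypes.

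Among the other cadherins, T-cadherin (Cdh13), which is anchored in the membrane by a lipid and has no cytoplasmic tail, was on in all units between 15.2 and 74.6 CPM and was called in no comparison. Cdh23 (chromosome 10, 60302748 to 60696490), a long cadherin of the tip links of hair cells, was 73.2 CPM in the p53fl/fl unit 475/562 and at most 6.62 in every other unit. It was the only member called for p53R172H/fl against p53fl/fl, with a log2 difference of -2.58 (SE 0.63, adjusted p = 0.0142), and was also called for p53R245W/fl (-2.89, SE 0.66, adjusted p = 0.00225). Both calls rest on that unit: without it the differences were -0.11 (adjusted p = 0.926) and -0.42 (adjusted p = 0.581). The library medians were 1.22 CPM in p53fl/fl, 1.32 in p53R172H/fl and 0.98 in p53R245W/fl, and the matched-pair fit gave -0.42 (adjusted p = 0.918) and -0.34 (adjusted p = 0.912).

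The delta protocadherins are single genes outside the arrays, with short conserved motifs in their tails. Of the delta-1 genes, Pcdh7 ranged from 14.4 to 231 CPM over units and passed no test, with its largest difference between p53R245W/fl and p53R172H/fl (-0.73, SE 0.32, adjusted p = 0.073). Pcdh1 was lower in p53R245W/fl than in p53R172H/fl. Pcdh1 libraries had a lowest, median and highest level of 16.1, 39.3 and 73.5 CPM in p53R172H/fl and 6.47, 18.5 and 54.2 in p53R245W/fl, and 15 of 17 p53R245W/fl libraries and 10 of 11 units lay below the p53R172H/fl median. The log2 difference was -0.92 (SE 0.21, adjusted p = 0.000755), and -0.58 in the matched-pair fit (SE 0.21, adjusted p = 0.119).

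Pcdh9 (chromosome 14, 93013410 to 93890679) was the only member called higher in any comparison. Its lowest, median and highest libraries were 0.0, 1.66 and 10.8 CPM in p53fl/fl and 0.063, 10.1 and 68.3 in p53R245W/fl. The groups overlapped, and 9 of 11 p53R245W/fl units lay above the p53fl/fl unit median, with 431/1575 highest at 65.9 CPM. The log2 difference was 2.74 (SE 0.77, adjusted p = 0.0105); without 431/1575 it was 2.002 (adjusted p = 0.0524), and in the matched-pair fit 2.33 (SE 1.07, adjusted p = 0.429). The p53R172H/fl unit 472/889 also had a high level, 35.5 CPM.

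Of the delta-2 genes, Pcdh18 (chromosome 3, 49743296 to 49757325) was on everywhere and was lower in p53R245W/fl than in both other groups. Its lowest, median and highest libraries were 102, 141 and 341 CPM in p53fl/fl, 90.5, 149 and 223 in p53R172H/fl, and 13.6, 105 and 143 in p53R245W/fl. All 11 p53R245W/fl units lay below the medians of both other groups, although the ranges overlapped. The log2 difference was -0.64 against p53fl/fl (SE 0.16, adjusted p = 0.00506; 16 of 17 libraries below the median) and -0.56 against p53R172H/fl (SE 0.16, adjusted p = 0.00557; 17 of 17 libraries). Both calls held when any 1 unit was left out. In the matched-pair fit the differences were -0.78 (SE 0.23, adjusted p = 0.187) and -0.63 (SE 0.22, adjusted p = 0.101).

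Pcdh19 and Pcdh17 were called in no comparison, and Pcdh10 and Pcdh8 did not pass the filter on low counts. Pcdh19, an X-linked gene known from an inherited epilepsy, was 122 CPM in 494/1831, 120 in 1580 and 85.1 in the p53fl/fl tumour 1606, against a median of 20.5. Pcdh17 ranged from 7.55 to 41.6 CPM. Pcdh10 was off in 28 units and reached 24.3 CPM in the p53R172H/fl tumour 5798 and 12.9 in 494/1831.

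Pcdh12, vascular endothelial protocadherin, was on in all units between 8.34 and 45.9 CPM and did not pass the test in any comparison. It was the member that followed its marker list most closely: r with the mean of 12 endothelial genes was 0.86 (rho 0.84, permutation p = 1e-05 for both, the smallest that 100000 permutations can give, adjusted 9e-05). It was 0.84 without the 2 farthest units, 0.89, 0.87 and 0.82 within p53fl/fl, p53R172H/fl and p53R245W/fl, and 0.82 without the 3 units of low osteoblast markers. Units rich in endothelial transcripts thus had more Pcdh12 in each genotype.

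Turning to the clustered protocadherins, the 3 arrays lie next to each other on chromosome 18 of GRCm38, the Pcdha genes between 36930184 and 37187661, the Pcdhb genes between 37294812 and 37524479 and the Pcdhg genes between 37661793 and 37841873. They differed in how many members each tumour used. The summed Pcdha level had a median of 2.58 CPM per unit, with a median of 1 of 12 members on. The summed Pcdhb level had a median of 116 CPM with 14 of 21 members on, and the Pcdhg level 295 CPM with 22 of 22 on. How reads in the exons shared within Pcdha and Pcdhg were counted is not stated in any source used here, so levels in these arrays are uncertain. In 18 of 21 libraries with at least 100 Pcdhac2 counts, Pcdha1 had no count, so shared-exon reads were not added to every gene of the array.

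**Figure D3:**
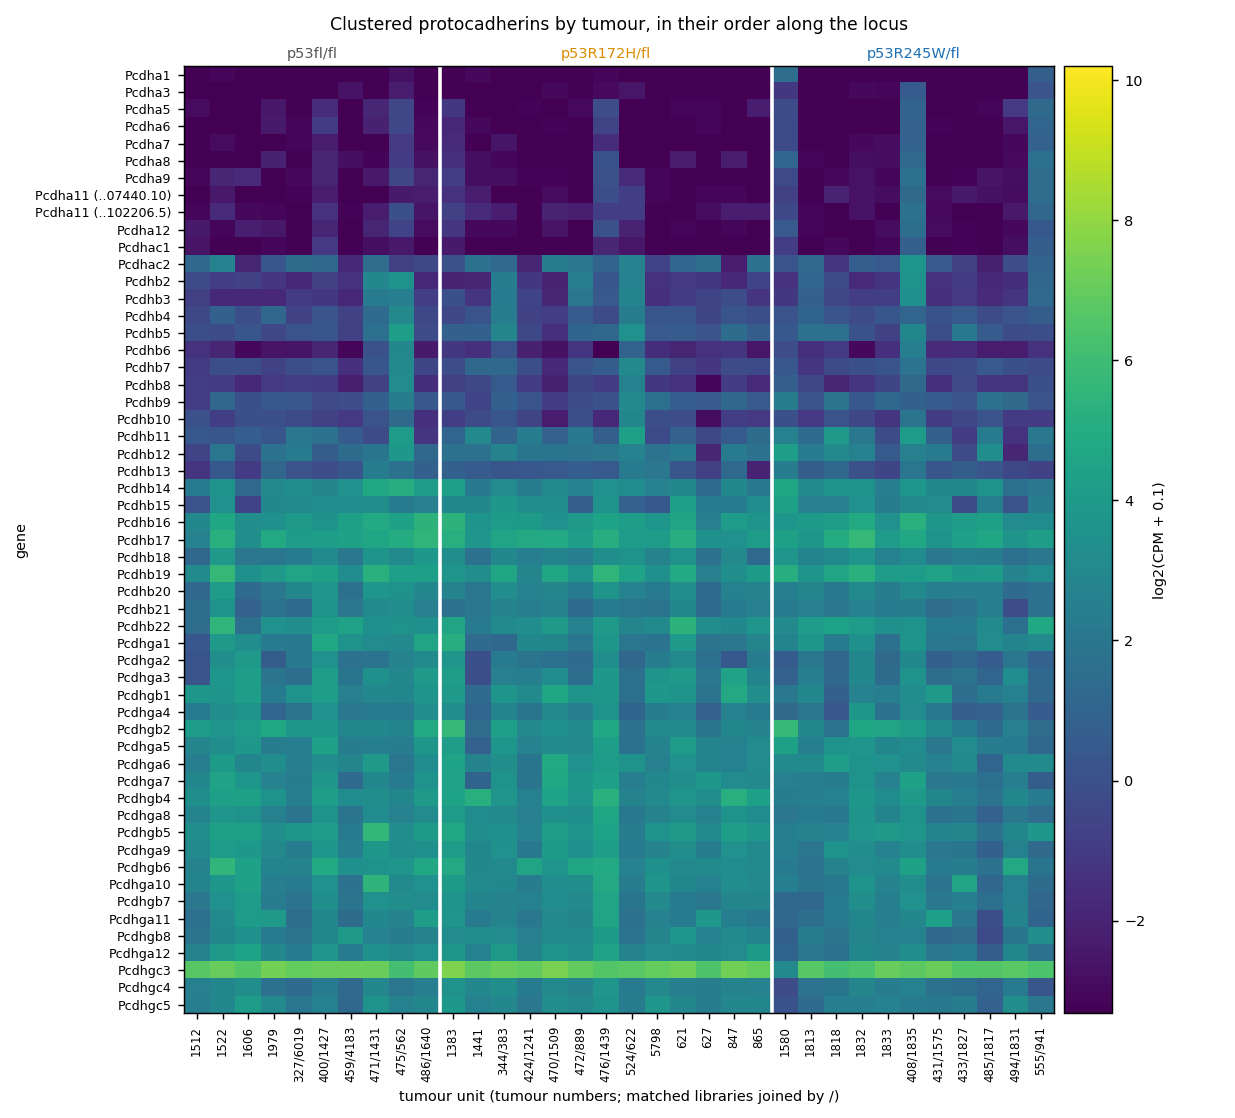
Level of the 55 clustered protocadherins (rows, in their order along the locus) in the 34 tumour units (columns, grouped by genotype), as log2 of CPM plus 0.1. Pcdha1 to Pcdhac1 are brightest in 408/1835, 555/941 and, for Pcdha1, Pcdha8 and Pcdha12, 1580, with weaker signal in 476/1439 and 475/562, the upstream Pcdhb genes are bright in a few units, and Pcdhgc3 is the brightest row in all units except 1580.

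In the Pcdha array, Pcdhac2, the last of the array, was the usual member: it was on in 22 of 34 units at a median of 1.73 CPM. The other 11 members were each at 1 CPM or more in 2 or 3 units, all of them p53R245W/fl tumours. Other genotypes came close to that level: the p53R172H/fl unit 476/1439 had Pcdha8 at 0.95 CPM, Pcdha12 at 0.94, Pcdha9 at 0.92 and Pcdha5 at 0.82, and 1 of its libraries reached 1.498 for Pcdha9. In the p53fl/fl unit 475/562 Pcdha11 (ENSMUSG00000102206.5) was 0.88 CPM. In 1580, by comparison, Pcdha5 was 0.74 and Pcdha9 0.69 CPM. Unit 555/941 had 12 of 12 members on, 408/1835 had 11 and 1580 had 4, and no other unit had more than 1. In 408/1835 the members other than Pcdhac2 reached 3.25 CPM (Pcdha11, ENSMUSG00000102206.5), with Pcdha9 at 2.94, Pcdha12 at 2.80, Pcdha11 (ENSMUSG00000007440.10) at 2.49 and Pcdha8 at 2.37. Pcdha1 was the exception: it had no count in 408/1835, but 2.72 CPM in 1580 and 1.59 in 555/941.

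In 555/941 the same genes had similar levels, with Pcdha8 at 2.93 CPM, Pcdha9 at 2.73, Pcdha5 at 2.47, Pcdha6 at 1.996, Pcdha7 at 1.83 and Pcdhac1 at 1.51. Pcdha3 was 1.34 CPM in 408/1835 and 1.10 in 555/941. The median of each of the 11 over all units was at most 0.079 CPM. Osteoblast markers were low in 408/1835 and 1580 but 47110 CPM in 555/941 (rank 27 of 34). Summed Schwann and neural markers ranked 1 in 408/1835 (1816 CPM against a median of 164), 13 in 1580 and 33 in 555/941, and keratinocyte and epithelial markers ranked 2, 1 and 4. The part of these cells in the Pcdha levels was not tested.

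The Pcdha array had 3 members that passed the filter on low counts, and none was called in the edgeR fit over 52 libraries. Their median log2 difference was 1.85 for p53R245W/fl against p53fl/fl, with 3 of 3 higher (all genes 0.04). Against p53R172H/fl it was 1.86, with 2 of 3 higher (all genes 0.07). In each comparison of p53R245W/fl 2 of the 3 had an unadjusted p under 0.05. The other 9 were not tested in this fit. These differences do not show a rise across the p53R245W/fl tumours. The median unit of Pcdhac2 was 1.28 CPM in p53R245W/fl, against 1.71 in p53fl/fl and 2.37 in p53R172H/fl, and its highest was 408/1835 at 13.5. All members but Pcdhac2 were at 1 CPM or more only in 408/1835, 555/941 or 1580. No fit left out these units together.

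**Figure D4:**
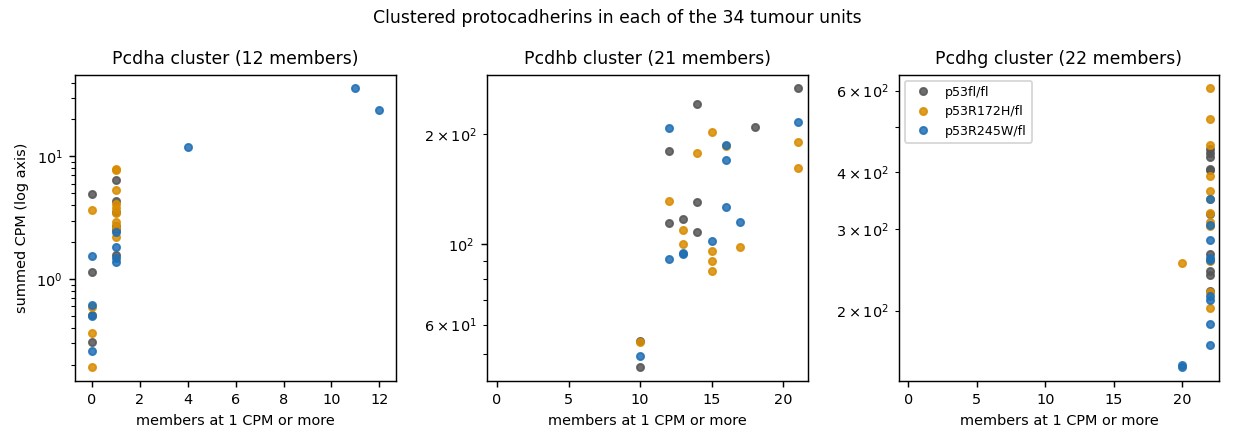
Summed level (CPM, log axis) against the number of members at 1 CPM or more in each of the 34 tumour units, for the Pcdha, Pcdhb and Pcdhg arrays; points are units, coloured by genotype. In the Pcdha panel 3 p53R245W/fl units stand apart with 12, 11 and 4 members on, in the Pcdhb panel 4 units of all 3 genotypes have 21, and in the Pcdhg panel all units have 20 to 22.

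In the Pcdhb array the level followed the position in the array. The 9 genes at the downstream end, Pcdhb14 to Pcdhb22, had median levels of 0.942 to 4.31 RPKM and were on in 32 to 34 units each, with Pcdhb17 (4.31), Pcdhb16 (3.18) and Pcdhb15 (2.75) highest. The 12 genes upstream of them, Pcdhb2 to Pcdhb13, had medians of 0.0635 to 1.23 RPKM and were on in 4 to 29 units. All 12 upstream genes were on in 4 units of the 3 genotypes: 475/562 (p53fl/fl), 524/622 and 344/383 (p53R172H/fl) and 408/1835 (p53R245W/fl). The median unit had 5 of the 12 on and the lowest had 1. The summed level of the 12 was 112 CPM in 475/562, 92.1 in 524/622, 75.9 in 408/1835 and 39.2 in 344/383. The split at Pcdhb14 was made after the levels were seen.

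The leading member of the 12 differed between those 4 units. It was Pcdhb5 in 475/562 (18.9 CPM) and in 344/383 (7.08), and Pcdhb11 in 524/622 (20.2) and in 408/1835 (17.03). Pcdhb3 had its highest unit in 408/1835, at 11.1 CPM. Pcdhb2 was 12.2 CPM in 475/562 and 12.1 in 408/1835 against a median of 0.37. The lowest summed Pcdhb levels were 46.03 CPM in the p53fl/fl tumour 1512 and 49.4 in the p53R245W/fl unit 494/1831.

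In the Pcdhg array, Pcdhgc3 made up a median of 40.9% of the summed level, from 5.30% to 62.5%, and its low value was that of 1580, at 8.10 CPM against at least 70.7 in every other unit. The next members per length were Pcdhgb6 and Pcdhgb1, each at 3.48 and 3.47 RPKM, so that Pcdhgc3 at 35.8 RPKM stood apart from all other members of the array. In 1580 other members carried the sum: Pcdhgb2 was 52.6 CPM there, its highest unit, against a median of 8.45, and Pcdhga5 was 20.6 against 7.15. Summed Pcdhg levels had a median of 364 CPM over p53fl/fl units (221 to 449), 325 over p53R172H/fl units (202 to 606) and 215 over p53R245W/fl units (151 to 349.5), with overlap between the groups.

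Across units the summed levels of the arrays were weakly related. Pearson's r was 0.37 between Pcdha and Pcdhb, 0.06 between Pcdha and Pcdhg and 0.20 between Pcdhb and Pcdhg over 34 units, which share library sizes. Within p53fl/fl, p53R172H/fl and p53R245W/fl, r between Pcdhb and Pcdhg was 0.15, 0.48 and 0.02. Spearman's rho over the 34 units was 0.43 between Pcdha and Pcdhb, 0.145 between Pcdha and Pcdhg and 0.24 between Pcdhb and Pcdhg. For Pcdha and Pcdhb the permutation p was 0.0311 for r and 0.0119 for rho, adjusted over 9 relations 0.056 and 0.0536. For the other pairs of arrays each adjusted permutation p was at least 0.311. The members were chosen with results of these data known, which limits what these p-values can show.

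Across genotypes, 67 of the 83 members passed the filter and were tested with the other genes, 18882 in all. For p53R172H/fl against p53fl/fl, 3.75% of all genes tested were called at an adjusted p under 0.05 (1.46% higher, 2.29% lower), and 1 of 67 members (Cdh23, lower) was called. The members' median log2 difference was -0.03 against -0.02 for all genes. For p53R245W/fl against p53fl/fl, 17.8% of all genes were called (10% higher, 7.82% lower), and 10 of 67 members: Pcdh9 higher, and Pcdh18, Cdh22, Cdh23, Pcdhb20, Pcdhb21, Pcdhga2, Pcdhga9, Pcdhga12 and Pcdhgb5 lower. For p53R245W/fl against p53R172H/fl, 30.9% of all genes were called (18.2% higher, 12.7% lower), and 13 of 67 members, all lower. These 2 comparisons share the p53R245W/fl libraries, and the first 2 share the p53fl/fl libraries.

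The matched-pair fit, which does not count the libraries of a pair as independent, called 0.0106%, 0.0159% and 1.55% of all genes in the 3 comparisons, and 0, 0 and 1 members. The member was Pcdhgb8, lower in p53R245W/fl than in p53R172H/fl. The p-values over 52 libraries measure only the spread between these libraries and treat matched ones as separate, so they are too small. Single units moved the counts: without 475/562 none was called for p53R172H/fl against p53fl/fl, and without 1512 there were 3; for p53R245W/fl against p53fl/fl there were 21 without 408/1835 and 16 without 327/6019 or 459/4183. At an unadjusted p under 0.05, 8, 26 and 21 of 67 members passed in the 3 comparisons. Counts at TEC loci and sense intronic transcripts, which hold unspliced RNA among others, had median shares of 0.326% in p53fl/fl, 0.304% in p53R172H/fl and 0.152% in p53R245W/fl; in a fit with this share as a term 2, 5 and 4 members were called, of which 1 in each comparison was among those named above. With library set as a covariate 1, 1 and 10 were called, all of them among those named. Without the 5 libraries of low Col1a1 8 of the 10 and all 13 of the 13 members were still called.

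The Pcdhg genes were 4 of the 9 members called lower against p53fl/fl and 10 of the 13 called lower against p53R172H/fl. All 22 had a lower fitted level in p53R245W/fl than in either other group, with a median log2 difference of -0.70 against p53fl/fl (all genes 0.04) and -0.71 against p53R172H/fl (all genes 0.07), and 4 and 10 of 22 were called. Of all genes 17.8% and 30.9% were called in these comparisons (7.82% and 12.7% lower), so that 4 of 22 is near the share called in either direction. Between p53R172H/fl and p53fl/fl, 9 of 22 were lower, the median was 0.04 and none was called (2 at an unadjusted p under 0.05). For Pcdhg the median in the matched-pair fit was -0.73 and -0.70, with 22 and 21 of 22 lower and 0 and 1 called. A covariate for library set gave -0.57 and -0.56, with 0 and 7 called. In the fit with the TEC and intronic share it was -0.27 and -0.18, with 16 and 15 of 22 lower and none called. Within library set B it was -0.48 and -0.90, with none called. Within set C, where p53fl/fl had 2 libraries, it was 0.245 against p53fl/fl and -0.58 against p53R172H/fl. Without the 5 libraries of low Col1a1, chosen after seeing the data, it was -0.89 and -0.96, with 9 and 13 called. Of all 19130 genes in that fit, 2252 and 4298 were called. In DESeq2 the Pcdhg median was -0.70 and -0.74, with 7 and 11 called, and of all 20730 genes 3937 and 6392 were called.

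The Pcdhb array had medians of -0.33 and -0.12 in the edgeR fit, with 2 and 0 of 21 called. These medians were 0.05 and -0.02 in the matched-pair fit, -0.60 and -0.495 within set B (19 and 20 of 21 lower) and -0.65 and -0.42 when the 5 libraries of low Col1a1 were left out. With the TEC and intronic share they turned to 0.81 and 0.74, with 5 and 1 of 21 lower. A difference between the Pcdhb and Pcdhg arrays was not tested.

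Of the C-type genes, which lie at the downstream end of the array and differ in sequence from the others, Pcdhgc4 had lowest, median and highest libraries of 4.30, 6.77 and 18.2 CPM in p53R172H/fl and 0.776, 3.60 and 7.90 in p53R245W/fl. The groups overlapped, with 15 of 17 p53R245W/fl libraries below the p53R172H/fl median, and the log2 difference was -1.15 (SE 0.25, adjusted p = 0.000498; matched-pair fit -1.08, adjusted p = 0.0611). Pcdhgc5 fell by 0.76 on the log2 scale (adjusted p = 0.0193; medians 7.47 and 4.84 CPM), a call lost without 485/1817 (-0.65, adjusted p = 0.0532). Pcdhgc3 did not pass the threshold, at -0.43 (SE 0.17, adjusted p = 0.0513).

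Among the A-type and B-type genes, Pcdhgb4 had lowest, median and highest libraries of 5.32, 14.1 and 46.5 CPM in p53R172H/fl and 3.30, 6.43 and 21.6 in p53R245W/fl, a log2 difference of -1.27 (SE 0.27, adjusted p = 0.000364; matched-pair fit -1.11, adjusted p = 0.0523). Pcdhga12 was 6.07, 9.17 and 30.1 CPM in p53R172H/fl and 1.28, 4.37 and 16.3 in p53R245W/fl, a log2 difference of -1.20 (SE 0.26, adjusted p = 0.000514; matched-pair fit -0.997, adjusted p = 0.0694). In both, 15 of 17 p53R245W/fl libraries lay below the p53R172H/fl median and the ranges overlapped. Pcdhgb8 was 3.41, 8.44 and 17.6 CPM against 0.693, 3.67 and 10.1, with -0.99 (SE 0.27, adjusted p = 0.00487) and, in the matched-pair fit, -1.33 (SE 0.32, adjusted p = 0.0299).

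The remaining 5 Pcdhg genes called in this comparison were also lower in p53R245W/fl. Medians were 9.38 and 4.29 CPM for Pcdhga8 (log2 difference -1.07), 11.7 and 4.93 for Pcdhgb1 (-1.01), and 10.3 and 4.65 for Pcdhga9 (-0.96) in p53R172H/fl and p53R245W/fl. They were 11.3 and 5.02 for Pcdhga7 (-0.90) and 7.11 and 4.79 for Pcdhgb7 (-0.73). The calls of Pcdhga7 and Pcdhgb7 were lost in 9 and 8 of the 34 fits that left out 1 unit; without 470/1509 Pcdhga7 was at -0.71 (adjusted p = 0.109), and without 476/1439 Pcdhgb7 was at -0.40 (adjusted p = 0.235).

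Against p53fl/fl, Pcdhga12 fell by 0.997 on the log2 scale (adjusted p = 0.00748), Pcdhga9 by 0.95 (adjusted p = 0.0102), Pcdhga2 by 1.01 (adjusted p = 0.0397) and Pcdhgb5 by 0.995 (adjusted p = 0.0103). For Pcdhga12 and Pcdhga9, 15 of 17 p53R245W/fl libraries lay below the p53fl/fl median, and for Pcdhga2 and Pcdhgb5, 14 of 17; the ranges overlapped for each gene. The p53fl/fl medians were 9.18, 10.3, 5.51 and 15.1 CPM and those of p53R245W/fl 4.37, 4.65, 2.46 and 8.06. Pcdhgb5 was lost without 471/1431 (-0.58, adjusted p = 0.116), the unit in which it was highest at 49.9 CPM. Pcdhga2 was lost in 12 of 34 such fits, the weakest of them without 400/1427 (-0.84, adjusted p = 0.109).

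The 2 Pcdhb genes called against p53fl/fl were neighbours at the downstream end. Pcdhb20 had medians of 8.45 CPM in p53fl/fl and 5.24 in p53R245W/fl (log2 difference -0.70, adjusted p = 0.0449) and Pcdhb21 of 5.91 and 4.08 (-0.75, adjusted p = 0.0339). These calls were lost in 13 and 8 of the 34 fits that left out 1 unit, for example without 471/1431 for Pcdhb20 (-0.58, adjusted p = 0.124) and without 400/1427 for Pcdhb21 (-0.57, adjusted p = 0.128).

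**Figure D5:**
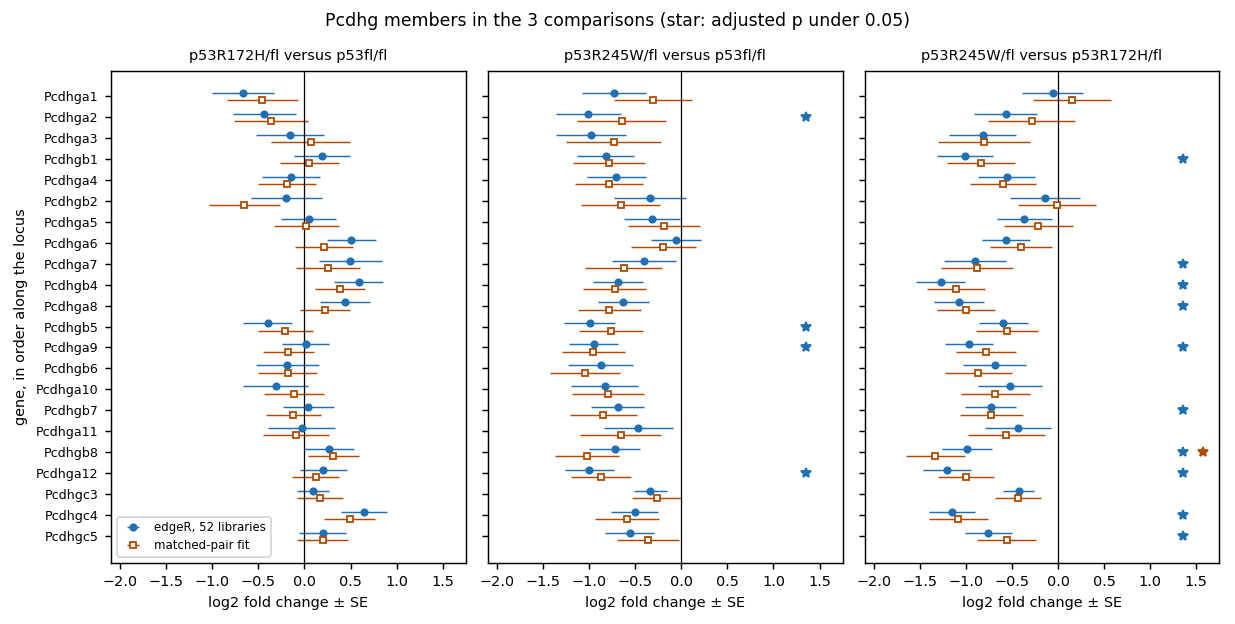
Log2 fold change of the 22 Pcdhg genes (rows, in their order along the locus) in the 3 comparisons, with bars of 1 standard error, from the edgeR fit over 52 libraries (filled circles) and the matched-pair limma voom fit (open squares); stars mark an adjusted p under 0.05. All circles lie left of 0 in both comparisons of p53R245W/fl, with 4 and 10 starred, and 1 square (Pcdhgb8) is starred.

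The 22 members that were on in 1 to 5 of the 34 units comprised 11 Pcdha genes, Pcdhb6, Pcdhb8 and 9 cadherins and non-clustered protocadherins. They were on in 57 combinations of gene and unit, 36 of them in the 11 p53R245W/fl units, 13 in the 13 p53R172H/fl units and 8 in the 10 p53fl/fl units. Of the 36 in p53R245W/fl, 24 were Pcdha genes. Most of the 36 lay in a few units: 408/1835 had 13, 555/941 had 11 and 1580 had 9. The higher count in p53R245W/fl is thus one of these units and not of the group as a whole. The share of all genes on in 1 to 5 units is not given here. Where the unit was a pair of libraries (36 combinations), both libraries were at 1 CPM or more in 31, and the lowest library was 0.87 CPM. Signal in a few tumours was thus present in both libraries of a pair.

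Cdh10, a type II cadherin of the brain, was 36.5 CPM in the p53R172H/fl unit 524/622, with 33.3 and 39.8 in its 2 libraries, 1.62 in 5798 and at most 0.51 elsewhere. Pcdh11x, an X-linked delta-1 gene, was 39.5 CPM in the p53R172H/fl unit 476/1439 (at least 37.9 in both of its libraries), 11.1 in 1580, 7.46 in the p53fl/fl unit 475/562, 2.49 in 627 and 1.04 in 1833. Cdh8 (5.49 CPM) and Cdh16 (4.49 CPM) were both highest in the p53fl/fl tumour 1512. Cdh8 was also on in 470/1509 at 1.04 CPM, whereas Cdh16, kidney-specific cadherin, had no count in 48 of 52 libraries and was on in that tumour only.

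Tumour 1580 had 9 of the 22 on, among them Cdh17, liver-intestine cadherin, at 8.19 CPM, Pcdh8 at 4.60 and Cdh4 at 2.59. Cdh17 was also on in 408/1835 (3.09 CPM) and in 1606 (2.50), and Cdh4 in 621 (1.29). Pcdh8, a delta-2 gene, was on in 1580 only, with a median of 0.011 CPM over all units. Unit 408/1835 had 13 of the 22 on and 555/941 had 11; these 2 units also had the most members on in all, 66 and 65 of 83, against 46 in 494/1831.

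Pcdh20 was on in 5 units of all genotypes, 5798 (5.18 CPM), 459/4183 (1.86), 1580 (1.84), 1833 (1.09) and 1606 (1.04). Cdh18 was on in 1818 (2.80 CPM), 470/1509 (1.40) and 621 (1.29). Pcdhb8 was 9.03 CPM in 475/562, 6.13 in 524/622, 2.43 in 408/1835, 1.60 in 1580 and 1.34 in 344/383. Pcdhb6 was 7.57 CPM in 475/562, 5.55 in 408/1835, 1.86 in 524/622 and 1.02 in 344/383. Both belong to the 12 upstream Pcdhb genes, so they were by definition on in the 4 units that had all 12 on.

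Promoter sequences were compared between members that were on everywhere and members that were on in few tumours. RefSeq promoters on GRCm38.p6 were found for 18 members, and for 11 of these the RefSeq start site lay within 10 bases of the annotated start of the gene. Only the 11 are described. The 250 bases before the start site were compared with 32817 windows of the same length, whose median number of CG pairs was 6. The 4 windows printed here belong to genes with very different use: Pcdh18 was on in all 34 units, Pcdh10 in 6, Pcdh20 in 5 and Cdh8 in 2. Each is written 5′ to 3′ on the strand of the gene, and capitals mark CG pairs, which read the same on both strands.
Pcdh18: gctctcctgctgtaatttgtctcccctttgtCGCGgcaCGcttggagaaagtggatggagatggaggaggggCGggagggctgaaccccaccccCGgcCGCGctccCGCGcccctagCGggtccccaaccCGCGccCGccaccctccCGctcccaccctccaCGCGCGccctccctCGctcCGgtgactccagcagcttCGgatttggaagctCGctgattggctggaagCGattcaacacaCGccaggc
Pcdh10: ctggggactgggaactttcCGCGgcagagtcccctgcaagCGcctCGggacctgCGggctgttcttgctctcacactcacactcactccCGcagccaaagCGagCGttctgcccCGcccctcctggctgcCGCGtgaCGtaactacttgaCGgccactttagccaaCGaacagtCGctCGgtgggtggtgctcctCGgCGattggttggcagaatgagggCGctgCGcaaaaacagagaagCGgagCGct
Cdh8: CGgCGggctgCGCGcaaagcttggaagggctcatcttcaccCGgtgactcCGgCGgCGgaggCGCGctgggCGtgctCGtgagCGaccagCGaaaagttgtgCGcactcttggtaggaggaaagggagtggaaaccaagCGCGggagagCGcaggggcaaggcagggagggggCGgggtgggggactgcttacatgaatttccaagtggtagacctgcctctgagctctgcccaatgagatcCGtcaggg
Pcdh20: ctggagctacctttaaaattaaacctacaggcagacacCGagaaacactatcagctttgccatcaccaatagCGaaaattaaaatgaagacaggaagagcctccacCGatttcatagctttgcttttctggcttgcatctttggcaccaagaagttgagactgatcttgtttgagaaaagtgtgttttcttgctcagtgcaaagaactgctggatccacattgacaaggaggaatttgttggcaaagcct

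The Pcdh18 window (chr3:49757317-49757566, minus strand) held 23 CG pairs, a number that 13.3% of all windows reach. The Pcdh10 window (chr3:45378148-45378397, plus strand) held 22 (14.8%) and the Cdh8 window (chr8:99416472-99416721, minus strand) 20 (17.9%). The Pcdh20 window (chr14:88471397-88471646, minus strand) held 3, a number that 70.9% of windows reach. Windows rich in CG pairs thus stood before a gene that was on in all tumours and before genes that were on in few. Across the 11 members the count ranged from 3 for Pcdh20 to 23 for Pcdh18.

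Related genes were given by lists, whose counts stand beside 3.75%, 17.8% and 30.9% of all genes called in the 3 comparisons. Of 17 tested catenins and junction linkers, 0, 2 and 1 were called in the 3 comparisons: Ctnnal1, an alpha-catenin-like protein (log2 difference 1.05, SE 0.33, adjusted p = 0.0218), and Nectin2, a junctional adhesion receptor (0.94, SE 0.31, adjusted p = 0.0288), were higher in p53R245W/fl than in p53fl/fl, and Nectin2 was higher than in p53R172H/fl (1.003, SE 0.29, adjusted p = 0.00815). Median differences of the list were 0.01, 0.04 and -0.03. Of 19 tested genes of the wider cadherin superfamily, 1, 3 and 7 were called, with 1, 2 and 4 of them higher.

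Of 17 regulators of the protocadherin arrays, 2, 1 and 3 were called, the last 2 counts below the share of all genes. The cohesin subunit Stag2 was lower in p53R172H/fl than in p53fl/fl (-0.41, SE 0.09, adjusted p = 0.00829) and higher in p53R245W/fl than in p53R172H/fl (0.50, SE 0.09, adjusted p = 7.77e-05). Smchd1, a silencing protein, was lower in p53R172H/fl (-0.36, adjusted p = 0.0383), and Setdb1, a histone methyltransferase, was lower in p53R245W/fl than in p53fl/fl (-0.38, adjusted p = 0.0476). Between the mutants, Wapl, which releases cohesin, was higher in p53R245W/fl (0.38, adjusted p = 0.00982) and Tet3, which oxidises methylcytosine, was lower (-0.69, adjusted p = 0.00136). Ctcf, the DNA-binding protein of the array promoters, was called in none. Of 14 cytoplasmic partners of protocadherins, 2 were called lower in p53R172H/fl than in p53fl/fl (Abi1 and Pdcd10), and 4 and 5 were called higher in p53R245W/fl than in p53fl/fl (Pdcd10, Wasf3, Fez1 and Brk1) and in p53R172H/fl (Pdcd10, Abi1, Nckap1, Wasf3 and Brk1). In the matched-pair fit 2 of the 14 were called between the mutants, and none of the 17 catenins, 19 superfamily genes or 17 regulators was called.

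Some markers of other cells were called between the groups in the edgeR fit, but none of the muscle, keratinocyte, Schwann or endothelial genes was called in the matched-pair fit. In the edgeR fit 13 of 20 skeletal muscle genes were called higher in p53R172H/fl than in p53fl/fl, and 8 were called lower in p53R245W/fl than in p53R172H/fl. Their summed level ranged from 102 to 8019 CPM over p53fl/fl libraries, 309 to 48700 in p53R172H/fl and 57.1 to 9547 in p53R245W/fl. Of 9 tested keratinocyte and epithelial genes, 4 were called higher in p53R245W/fl than in either other group, and of 10 Schwann and neural genes 4 and 5; summed Schwann and neural levels ranged from 72.7 to 2003 CPM in p53R245W/fl, 73.5 to 301 in p53fl/fl and 109 to 277 in p53R172H/fl. The high end was 1 unit, 408/1835, at 1816 CPM, and the next unit was at 273. Of 12 endothelial genes, 2 (Egfl7 and Robo4) were called lower in p53R245W/fl than in p53R172H/fl. The part of these cells in the member differences was not tested.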

How the data were processed

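The 52 bulk RNA-seq libraries of primary osteosarcomas (34 tumour units after matching) were analysed as read counts per Ensembl gene, which the authors deposited without normalization. Reads were aligned with STAR to GRCm38, per the submitters' processing notes. Their versions, the counting program, the annotation release and the handling of strand and of shared exons are not given in the labels or headers used here, and 17 members overlap exons of a gene on the other strand. The deposited table held no gene with fewer than 260 counts in all, and all of its columns were mapped to labelled samples.

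Counts were scaled by TMM factors to CPM, filtered with filterByExpr (minimum count 10) and tested in edgeR 4.0.16 (quasi-likelihood, all 52 libraries, Benjamini-Hochberg adjustment over 18882 genes) under R 4.3.3. Libraries were matched by the Spearman correlation of 11033 genes that excluded the members and the sex chromosomes. The matched-pair fit used limma 3.58.1 (voom, library set as a covariate, a correlation of 0.857 within pairs). A unit's level is the mean of its libraries. DESeq2 1.42.0 and the other alternatives are given in the closing section. Relations were tested with 100000 permutations, two-sided. Totals of 21596798 to 67223388 counts set the precision.

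The members and gene lists were chosen with earlier results of these data known. Members are named with values if they were called, if they were on in 1 to 5 units or if they were among the 3 highest of their class per length. Cdh6, Pcdh10, Pcdhb2, Pcdhb3, Pcdhb5, Pcdhb11, Pcdhgb2 and Pcdhga5 were named after their values were seen.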

Additional observations from a re-analysis of the deposited data

Results flagged for a closer look

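Among the 10 p53fl/fl units, 11 of the 59 named members had 1 unit far above the rest by Dixon's criterion on the log2 scale. The criterion's rate of about 1 in 20 groups holds for unselected, normally distributed values. It cannot be set beside this count, since members were named in part for being on in 1 to 5 units and several values lie at or near 0. In 475/562, Cdh23 was 73.2 CPM (next unit 6.62), Pcdhb8 was 9.03 (0.516), Pcdh11x was 7.46 (0.122) and Pcdha5 was 0.638 (0.225). Pcdh8 was 0.0847 CPM there (0.0214) and Pcdha1 0.0522 (0.0147), levels too low to call on. In 1512, Cdh8 was 5.49 CPM (0.388) and Cdh16 was 4.49 (0.0). In 1606, Pcdh19 was 85.1 CPM (29.2) and Cdh17 was 2.50 (0.339). In 400/1427, Pcdhac1 was 0.381 CPM (0.087). The groups with more than 10 units were not examined in this way.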

How the results depend on the processing

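Counts of called members depended on how matched libraries and library sets were treated. For p53R172H/fl against p53fl/fl (1 in edgeR) the count was 4 with no filter, 2 with the TEC and intronic share as a term, 0 with matched pairs, 0 with counts of matched libraries summed, 3 without the libraries of low Col1a1, 2 with the 2 groups alone, 0 within each of sets A, B and C, and 2 in DESeq2. Cdh23, the member called in edgeR, was not among the 2 called in DESeq2. For p53R245W/fl against p53fl/fl (10) it was 17 with no filter, 1 with library set as a covariate, 5 with the TEC share, 0 with matched pairs, 3 with summed counts and 0 within sets B and C. For p53R245W/fl against p53R172H/fl (13) it was 23 with no filter, 4 with the TEC share, 1 with matched pairs and 0 within sets B and C. The cause was not tested, but fits within a set have fewer libraries. Leaving out 1 unit in turn, chosen after seeing the data, gave 0 to 3, 7 to 21 and 11 to 19. DESeq2 called 13 and 18 in the last 2 comparisons. Of 288 alternatives for single members, 164 kept the direction and the call, 120 lost the call and 4 changed sign, all within set C against p53fl/fl: Pcdhb21 at 0.38, Pcdhb20 at 0.33, Pcdhga12 at 0.057 and Pcdhga9 at 0.052. The count of members on in few tumours was 17 to 23 over its alternatives, 23 without the 3 units of low Col1a1 (also chosen after seeing the data). No paired analysis was possible because the genotypes share no replicate number (the matched pairs above are libraries of 1 genotype).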
